A study of Homo sapiens with 5 samples.

Results

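The genes described here are 10 components of the Notch pathway, chosen by symbol: the ligands DLL1, DLL3, DLL4, JAG1 and JAG2, the receptors NOTCH1, NOTCH2 and NOTCH3, and the Fringe glycosyltransferases LFNG and MFNG. All 10 were found among the 33538 genes listed for D22, D24 and D26 and among the 36601 genes listed for the other 5 libraries. Their RNA was measured by droplet single-cell RNA sequencing of the wild-type human embryonic stem cell line WA09 on its way to neurons that secrete gonadotropin-releasing hormone (GnRH). D0 was the undifferentiated line. D5_dSMADi and D10_dSMADi had received dual SMAD inhibition, that is, the BMP inhibitor dorsomorphin and the TGF-β receptor inhibitor SB431542, until they were harvested at day 5 or day 10. D5_XAV939 and D10_XAV939 had in addition received XAV939, a tankyrase inhibitor that lowers canonical Wnt signalling. D22, D24 and D26 had gone through dual SMAD inhibition without XAV939, then FGF8, and then DAPT, a γ-secretase inhibitor that blocks the release of the Notch intracellular domain, from the day before the D22 harvest. All 3 late libraries were thus under DAPT, no library at these days was without it, and the effects of day and of DAPT cannot be told apart.

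Each of the 8 libraries was 1 sample without a replicate, so differences carry no test, and all intervals are exact 95% intervals that cover counting error only. The 5 early libraries were tagged and loaded in 1 droplet run, and the late libraries were separate. Between 1008 and 11056 cells per library were kept, with 58073098 to 130440502 unique molecular identifiers (UMIs), and the median cell had 7180 to 69455.5 UMIs. Levels are UMIs of a gene summed over cells, as CPM, that is, divided by all UMIs of those cells and multiplied by 1000000, and a fall of a summed level cannot be told apart from a loss of the cells that hold the RNA unless the cells are separated, as was done below. The labels call D22 to D26 neurons. The 5 neuron markers summed to 1968 CPM at D22 and to 10624 and 10213 CPM at D24 and D26, whereas the 5 neural progenitor markers summed to 4249, 547 and 540 CPM. VIM made up 3630 of the 4249 CPM at D22 and STMN2 9045 of the 10624 CPM at D24. The other progenitor markers SOX2, PAX6, NES and SOX1 were lower at D22 than in D10_dSMADi. Endothelial markers, whose cell type also uses DLL4, NOTCH1 and JAG1, summed to 82.4 CPM at D0 and to at most 21.6 CPM from D5 on. Of the 5, none was at or above 1 CPM at D26, where CDH5 was at 0. Mural and mesenchymal markers summed to 0.955 to 37.4 CPM, and blood markers to at most 1.20 CPM. SOX10, a defining factor of neural crest and Schwann cells, was at no more than 1.41 CPM in any library and at 0 at D24 and D26. Astroglial markers summed to 1.64 to 65.4 CPM, highest at D26, where SLC1A2, a glutamate transporter, made up 65.2 CPM after 1.97 CPM at D22 and 13.2 CPM at D24. GFAP and AQP4 were at no more than 0.606 CPM in any library. No barcode was shared between the early libraries, which follows from splitting 1 droplet run by tag and is no check of them. Between pairs of late libraries 26 to 32 were shared.

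Notch receptors are single-pass membrane proteins that are activated by Delta-like (DLL) or Jagged (JAG) ligands on a neighbouring cell. The receptor is then cut by ADAM proteases and γ-secretase, and its intracellular domain joins RBPJ and Mastermind-like proteins to switch on HES and HEY repressors. In neurogenesis the ligands are switched on by proneural transcription factors in cells about to become neurons, while neighbours with active Notch remain progenitors. Fringe enzymes add sugars to the receptor and shift its preference between Delta-like and Jagged ligands.

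On GRCh38, with GENCODE 44 gene bounds, the Delta-like genes lie at chr6:170282206-170306565 (DLL1, minus strand), chr19:39498895-39508481 (DLL3, plus strand) and chr15:40929340-40939073 (DLL4, plus strand). The Jagged genes lie at chr20:10637684-10673999 (JAG1, minus strand) and chr14:105140982-105168824 (JAG2, minus strand). The receptors lie at chr9:136494433-136546048 (NOTCH1), chr1:119911553-120100779 (NOTCH2) and chr19:15159038-15200995 (NOTCH3), all on the minus strand, and the Fringe genes at chr7:2512529-2529177 (LFNG, plus strand) and chr22:37469063-37486393 (MFNG, minus strand). DLL1 overlaps FAM120B on the opposite strand, and whether strand was used in counting is not given in the sources used here. The NOTCH2NL genes are partial copies of NOTCH2, and their entries differ between the 2 gene lists. How reads shared with them were assigned was not tested.

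RefSeq promoter windows (GRCh38.p14, 250 bases before to 50 after the start) were found for 7 of the 10 genes, and not for DLL1, DLL3 and MFNG. The windows were searched on both strands for CANNTG, the E-box bound by proneural factors, for its forms CAGCTG and CAGATG, and for TGGGAA, the core of the site bound by RBPJ. Of all 35116 windows, 68.7% held CANNTG, 17.9% CAGCTG and 14.7% CAGATG, and 8439 windows held TGGGAA. Among the 7 genes TGGGAA was found only in the 2 windows of LFNG, 1 match in each, and CAGATG only in the first of these. The windows of DLL4, JAG1, NOTCH1, NOTCH2 and NOTCH3 held none of the motifs, and that of JAG2 held 2 matches of CANNTG. The first LFNG window and that of the Notch target HES5 are shown to the 10th base after the start, because both RNAs reached their highest level at D10 and were low at D22. The Notch target NRARP was also highest at D10 (108 CPM in D10_XAV939) and lower at D22 (15.2 CPM), but its window held no TGGGAA. The window of HES1, whose RNA was highest in D5_XAV939, held 2 matches. Capitals mark TGGGAA or its reverse complement, and a match of letters is a description and not a site.
LFNG, chr7:2512279-2512538, plus strand: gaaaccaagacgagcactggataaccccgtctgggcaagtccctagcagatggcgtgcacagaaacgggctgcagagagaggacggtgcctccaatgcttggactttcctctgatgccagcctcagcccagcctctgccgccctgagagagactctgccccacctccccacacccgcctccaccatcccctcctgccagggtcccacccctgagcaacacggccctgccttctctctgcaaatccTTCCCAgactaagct
HES5, chr1:2530254-2530513, minus strand: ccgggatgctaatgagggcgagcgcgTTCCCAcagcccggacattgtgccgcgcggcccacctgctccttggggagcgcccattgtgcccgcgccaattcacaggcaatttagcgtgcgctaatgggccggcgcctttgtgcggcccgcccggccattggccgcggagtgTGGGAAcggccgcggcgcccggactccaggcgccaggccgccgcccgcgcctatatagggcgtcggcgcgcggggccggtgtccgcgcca

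The ligands followed different courses over the libraries. DLL1, the Delta-like ligand of committing progenitors, was at 1.87 CPM at D0, 14.2 in D5_dSMADi, 18.3 in D5_XAV939, 61.4 in D10_dSMADi, 45.4 in D10_XAV939, 287 at D22, 6.96 at D24 and 8.82 at D26. DLL3, a divergent ligand that acts within the cell that makes it and does not activate receptors on neighbours, was at 12.4, 10.4, 9.10, 8.43, 20.6, 460, 112 and 32.3 CPM in the same order. DLL1 was thus higher at each step from D0 through D5_dSMADi and D10_dSMADi to D22, whereas DLL3 stayed between 8.43 and 20.6 CPM until D10 and stood high in the late libraries. DLL4, best known from vessel sprouting and also made by early neuronal cells, reached 6.85 CPM at D22 and stayed at or below 0.613 CPM elsewhere, with 4 to 9 UMIs in D0, both D5 libraries and D10_dSMADi.

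JAG1, a Jagged ligand of sensory placodes and progenitor zones, was at 12.6 CPM at D0, 74.2 in D5_dSMADi, 42.7 in D5_XAV939, 125 in D10_dSMADi, 108 in D10_XAV939, 47.9 at D22, 12.6 at D24 and 7.89 at D26. Its highest level therefore came at D10, before that of DLL1 and DLL3, and its levels at D0 and D24 did not differ beyond counting error. JAG2 stayed between 0.521 and 3.08 CPM, with its lowest level at D22 and its highest at D26. The neighbours D26 and D24 in the order of JAG2 did not differ beyond counting error, nor did successive libraries from D10_dSMADi to D10_XAV939 in that order.

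NOTCH1, NOTCH2 and NOTCH3 were all at 15.5 CPM or more until D10 and at 1.10 CPM or less from D24 on. NOTCH4, another receptor that is listed with the other pathway genes, went the other way. It was at 3.23 CPM at D22, 3.58 at D24 and 5.36 at D26, its highest level. NOTCH1, the main receptor of neural progenitors, was at 15.5 CPM at D0, 25.1 in D5_dSMADi, 25.2 in D5_XAV939, 25.2 in D10_dSMADi, 30.3 in D10_XAV939, 43.7 at D22, 0.67 at D24 and 0.0503 at D26. NOTCH2 was at 15.5, 24.2, 33.4, 22.8, 23.1, 10.5, 0.20 and 0.0503 CPM. NOTCH3 was at 17.5, 18.1, 20.1, 18.4, 19.9, 10.5, 1.10 and 0.684 CPM. At D22 NOTCH1 stood at its highest level of the 8 libraries, while NOTCH2 and NOTCH3 were both below every early library. At D26, 5 UMIs of NOTCH1 and 5 of NOTCH2 were counted in 11056 cells.

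The Fringe genes stood highest at different days. LFNG, the Fringe of cycling neural progenitors and of the segmentation clock, was at 10.7 CPM at D0, 67.0 in D5_dSMADi, 40.1 in D5_XAV939, 130 in D10_dSMADi, 82.8 in D10_XAV939, 14.4 at D22, 0.527 at D24 and 0.251 at D26. MFNG was at 2.17, 9.74, 6.26, 2.40, 3.43, 78.7, 1.45 and 0.101 CPM. LFNG was thus high where MFNG was low at D10, and MFNG reached its highest level at D22. SOX10 was at 1.41 CPM in D5_dSMADi and 0.127 CPM in D10_dSMADi, where LFNG stood highest.

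**Figure D1:**
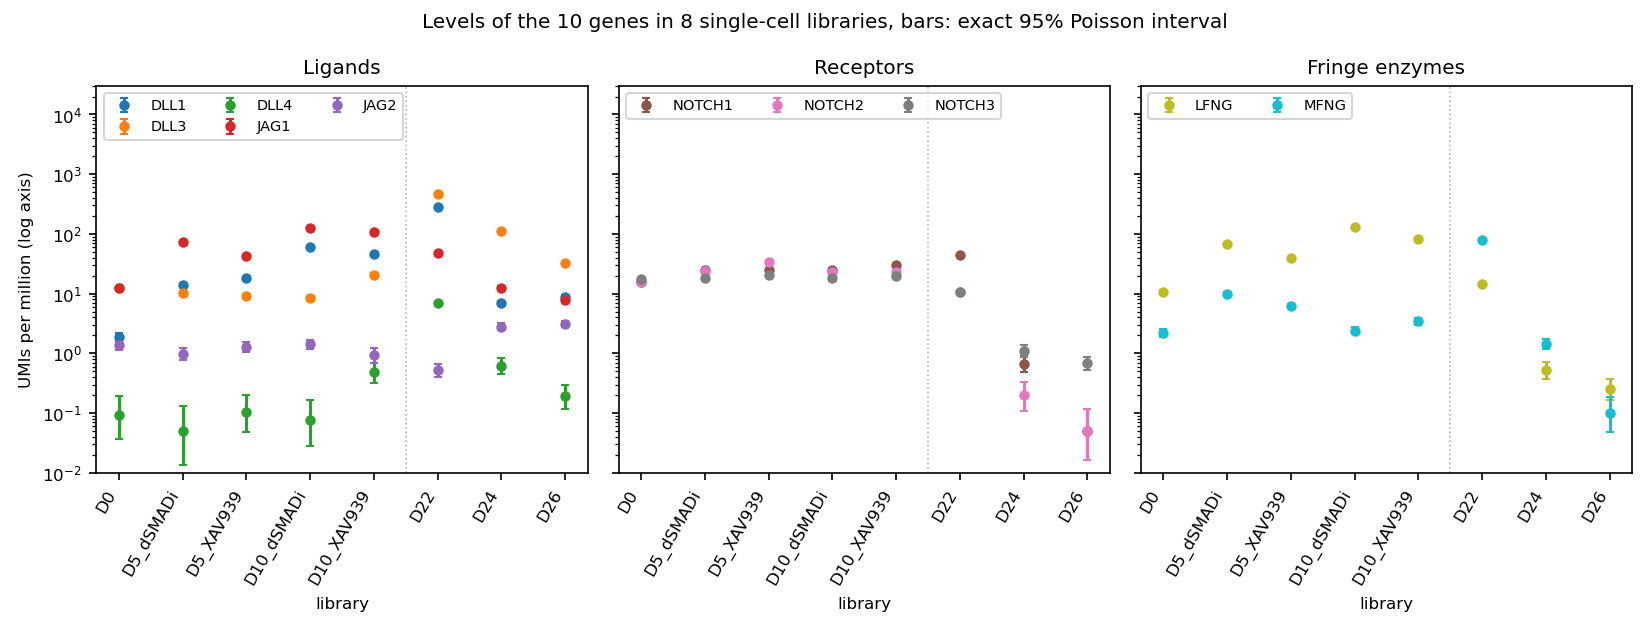
Level of each gene (y axis, CPM, log axis) in the 8 libraries (x axis), as points with exact 95% Poisson intervals, with ligands, receptors and Fringe enzymes in separate panels and a dotted line between the early libraries of 1 droplet run and the late libraries. DLL3 stood at 460 CPM at D22, and the 3 receptors were at 10.5 to 43.7 CPM at D22 and at most 1.10 CPM at D24.

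Neural induction was addressed by D5_dSMADi against D0. A gene was counted as changed when its CPM differed at least 2-fold and reached 10 CPM in 1 of the groups, and the same rule over all genes gives the background. A gene that reached 10 CPM only in the group where it was high had its direction fixed by this rule, and such members are named. Of 7 members at this level, 3 were higher and none was lower by this rule, against 8.22% of all genes higher and 17.0% lower. DLL1 was 7.57-fold higher (log2 ratio 2.92, interval 2.67 to 3.18), LFNG 6.25-fold (2.64, 2.54 to 2.75) and JAG1 5.90-fold (2.56, 2.46 to 2.66). These 3 genes are a ligand of each family and a Fringe enzyme, and no receptor was among them. The receptors differed by 1.62-fold (NOTCH1), 1.56-fold (NOTCH2) and 1.03-fold (NOTCH3). MFNG was 4.48-fold higher but reached only 9.74 CPM. DLL1 passed 10 CPM only in D5_dSMADi.

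From D5_dSMADi to D10_dSMADi, 1 of 7 members was higher, against 5.15% of all genes, and none was lower, against 1.35%. DLL1 was 4.34-fold higher (log2 ratio 2.12, interval 2.02 to 2.21). LFNG was 1.94-fold and JAG1 1.68-fold higher, below the fold that was counted. MFNG went the other way, 4.06-fold lower at levels under 10 CPM. DLL3 passed 10 CPM only in D5_dSMADi. The median log2 ratio of genes with at least 10 CPM in both libraries was 0.16 here, and NOTCH1 with 0.01, NOTCH2 with -0.09 and NOTCH3 with 0.03 lay below it.

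XAV939 was compared at matched days within the same droplet run. At D5 none of 7 members passed 2-fold in either direction, against 0.611% of all genes higher and 0.575% lower. JAG1 was 1.74-fold lower with XAV939 (log2 ratio -0.80, interval -0.86 to -0.74) and LFNG 1.67-fold lower (-0.74, -0.80 to -0.68), while NOTCH2 was 1.38-fold and DLL1 1.29-fold higher. NOTCH1 differed by a log2 ratio of 0.01, with an interval of -0.08 to 0.09. DLL3 passed 10 CPM at D5 only without XAV939. At D10, 1 of 7 members was higher, against 1.21% of all genes, and none was lower, against 1.41%. DLL3 was 2.45-fold higher with XAV939 (log2 ratio 1.29, interval 1.15 to 1.43), and passed 10 CPM only there. LFNG was 1.57-fold lower again (-0.65, -0.70 to -0.60), and JAG1 was only 1.15-fold lower (-0.21, -0.25 to -0.16). DLL1, which had been higher at D5, was 1.35-fold lower at D10 (-0.44, -0.51 to -0.37). MFNG, under 10 CPM in all 4 libraries, was lower with XAV939 at D5 (-0.64, -0.80 to -0.48) and higher at D10 (0.51, 0.22 to 0.81).

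**Figure D2:**
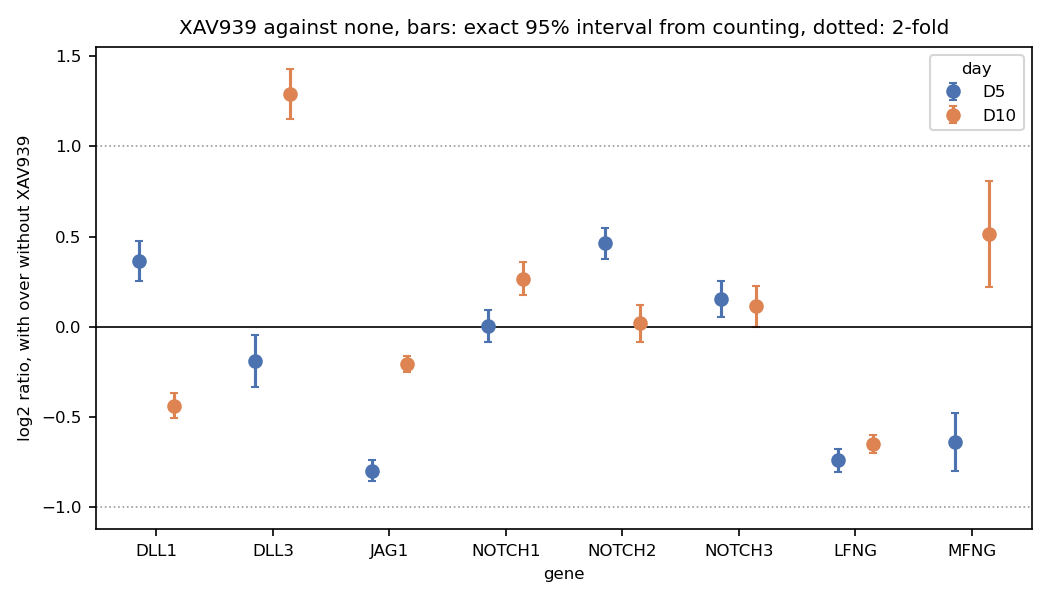
Log2 ratio of the library with over the library without XAV939 (y axis) at D5 and D10 for 8 genes (x axis), with exact 95% intervals from the split of UMIs and dotted lines at 2-fold. DLL4 and JAG2 are not shown, and DLL4 was at 0.482 CPM with and 0.0762 CPM without XAV939 at D10. Of the genes shown, only DLL3 at D10, at a log2 ratio of 1.29, lies outside the dotted lines, and LFNG lies below 0 at both days.

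The difference of DLL3 at D10 lay in few cells. Cells were separated by the summed UMIs of NEUROD4 and NHLH1, transcription factors of newly born neurons, into those with at least 4 and those with 0. At D10_XAV939, 59 cells (2.72%) had at least 4, and at D10_dSMADi 15 cells (0.621%). In D10_XAV939 these 59 cells held 2.60% of all UMIs but 66.8% of the DLL3 UMIs (800 of 1198), 85.7% of the DLL4 UMIs (24 of 28) and 43.2% of the MFNG UMIs (86 of 199). In cells with 0 NEUROD4 and NHLH1 UMIs, DLL3 was at 6.60 CPM with XAV939 and 7.32 CPM without it, and the log2 ratio was -0.15 with an interval of -0.35 to 0.05. LFNG remained 1.56-fold and DLL1 1.40-fold lower with XAV939 in those cells, and the log2 ratio of MFNG was -0.27 with an interval of -0.64 to 0.09.

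Within D10_XAV939, the 59 cells were compared with the 1995 cells with 0 UMIs. Doublets were called in 10.2% of the 59 cells and 3.16% of the 1995 cells, and their part in the values was not tested. Of 9 members measured, 3 were higher, against 11.5% of all genes, and 4 were lower, against 12.4%. Of these 7, 6 passed 10 CPM only in the group where they were high (DLL3, DLL4, MFNG and the receptors), so that only LFNG passed in both. DLL3 was at 529 against 6.60 CPM, 80.2-fold higher (log2 ratio 6.33, interval 6.14 to 6.51). MFNG was at 56.9 against 1.94 CPM, 29.3-fold higher (4.87, 4.44 to 5.30). DLL4 was at 15.9 CPM from 24 UMIs, against 3 UMIs in the other cells (0.0566 CPM), with an interval of the log2 ratio of 6.41 to 10.51. NOTCH1 was at 8.60 against 30.5 CPM, NOTCH2 at 3.31 against 23.6 and NOTCH3 at 4.63 against 20.5, which are 3.55-fold, 7.14-fold and 4.42-fold lower. The rule fixed the directions of DLL3 and of all 3 receptors, so no relation between them is drawn from these values. LFNG was at 25.1 against 84.6 CPM, 3.36-fold lower, and JAG1 at 97.3 against 107 CPM did not differ beyond counting error. DLL1 was 1.79-fold higher (0.84, 0.56 to 1.11). HES5, a direct Notch target, was at 187 against 949 CPM. In D10_dSMADi the 15 cells held 69 UMIs of DLL3, 13 of DLL1, 29 of JAG1, 10 of MFNG, 5 of LFNG and 1 of each receptor among 318181 UMIs. The other cells of that library, with 0 NEUROD4 and NHLH1 UMIs, had 7.32 CPM of DLL3 and 132 CPM of LFNG.

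**Figure D3:**
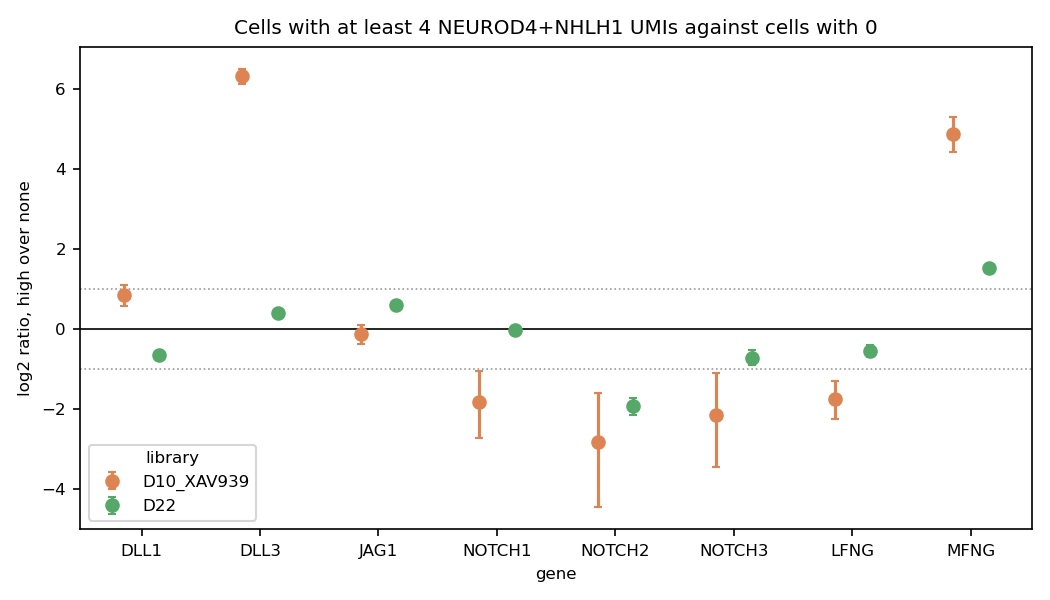
Log2 ratio of cells with at least 4 over cells with 0 NEUROD4 and NHLH1 UMIs (y axis) for 8 genes (x axis) in D10_XAV939 and in D22, with exact 95% intervals and dotted lines at 2-fold. DLL3 lies at 6.33 in D10_XAV939 and at 0.39 in D22, and NOTCH1 at -1.83 and -0.02.

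At D22 cells were separated first by division, as those with at least 5 UMIs of MKI67 and TOP2A against those with 0. There were 2043 dividing cells, of median depth 17361 UMIs, and 5898 others, of 11724.5 UMIs, and doublets were called in 10.1% and 2.29% of them. Of 8 members measured, 2 were higher in dividing cells, against 7.87% of all genes, and 1 was lower, against 5.01%. NOTCH2 was at 23.6 CPM in dividing and 4.25 CPM in other cells, 5.53-fold higher (log2 ratio 2.47, interval 2.28 to 2.66). NOTCH3 was at 16.1 against 7.81 CPM, 2.06-fold higher (1.04, 0.88 to 1.21). Both passed 10 CPM only in dividing cells, and NOTCH3 lay just past 2-fold. NOTCH1, the third receptor, was at 45.0 against 40.7 CPM, a difference of 1.11-fold. Dividing cells held 63.9% of the NOTCH2 UMIs of D22, 43.8% of those of NOTCH3 and 29.4% of those of NOTCH1, and 28.5% of all UMIs.

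The Delta-like ligands went opposite ways with division. DLL3 was at 248 CPM in dividing and 545 CPM in other cells, 2.20-fold lower (log2 ratio -1.14, interval -1.17 to -1.10). DLL1 was at 368 against 218 CPM, 1.69-fold higher (0.76, 0.72 to 0.79). JAG1 was at 58.9 against 40.4 CPM, and LFNG at 18.1 against 12.2 CPM, both under 1.5-fold apart. DLL4 was at 2.71 against 8.56 CPM. MFNG was at 55.2 against 90.5 CPM. Among cells with 0 NEUROD4 and NHLH1 UMIs, MFNG did not differ with division (39.4 against 39.2 CPM). Over the other ways of gating division, the log2 ratio of DLL3 was -0.90 with at least 2 UMIs and -0.93 with the gate set after thinning cells to 1500 UMIs, just inside 2-fold. That of NOTCH3 was 0.96 and 0.88 at these gates and 0.99 among cells with 0 NEUROD4 and NHLH1 UMIs, also inside 2-fold, and that of NOTCH2 was 2.32 and 1.93 at the 2 gates.

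The same D22 cells were then separated by NEUROD4 and NHLH1. The 3391 cells with at least 4 UMIs and the 3861 with 0 had medians of 12519 and 12153 UMIs. Of 9 members measured, 2 were higher with these factors, against 3.04% of all genes, and 1 was lower, against 5.0%. MFNG was at 117 against 40.6 CPM, 2.87-fold higher (log2 ratio 1.52, interval 1.45 to 1.59). DLL4 was at 12.7 against 1.67 CPM, 7.62-fold higher (2.93, 2.61 to 3.27). NOTCH2 was at 4.39 against 16.8 CPM, 3.83-fold lower (-1.94, -2.16 to -1.72). DLL4, NOTCH2 and NOTCH3 passed 10 CPM only in the group where they were high. The other measured members, NOTCH3 included, were within 2-fold. DLL1 was at 214 against 337 CPM, DLL3 at 526 against 401, JAG1 at 53.8 against 35.7, NOTCH3 at 7.99 against 13.2 and LFNG at 11.9 against 17.3. NOTCH1 was at 43.6 against 44.1 CPM, with an interval of the log2 ratio of -0.10 to 0.07. MFNG and DLL4 were higher with NEUROD4 and NHLH1 in D22 and in D10_XAV939. DLL3 was at a log2 ratio of 0.39 in D22 and 6.33 in D10_XAV939. Among non-dividing D22 cells DLL3 was not higher with the factors, as given below. DLL4 passed 10 CPM only in the cells with the factors in both libraries, and MFNG and DLL3 only there in D10_XAV939. The rule fixed these directions, so they cannot show whether the libraries agree. DLL1 was lower in cells with the factors at D22 and higher at D10_XAV939, and the difference between the libraries was not tested.

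With both gates together, 4 groups of D22 cells were formed: 1353 dividing cells without NEUROD4 and NHLH1, 286 dividing cells with at least 4 UMIs of them, 2621 non-dividing cells with at least 4, and 1816 non-dividing cells without. Among the 286 cells, which had the highest median depth of 23011 UMIs, 36.4% were called as doublets, and the part of doublets in their values was not tested. In this order DLL1 was at 353, 366, 167 and 277 CPM, and DLL3 at 212, 354, 547 and 560 CPM. Among non-dividing cells DLL3 differed by a log2 ratio of only -0.03 between cells with and without these factors, and among dividing cells by 0.74. MFNG was at 39.4, 94.3, 122 and 39.2 CPM and DLL4 at 0.567, 9.36, 13.0 and 2.39 CPM. Both were high with the factors in dividing and in non-dividing cells. DLL4 passed 10 CPM only in the non-dividing cells with the factors, so the rule fixed its direction there. JAG1 was at 42.2, 85.6, 46.0 and 27.5 CPM, NOTCH2 at 26.2, 14.6, 2.19 and 7.77 CPM, and NOTCH3 at 17.8, 11.6, 7.31 and 8.94 CPM. NOTCH1 was at 43.97, 45.9, 41.9 and 40.4 CPM and did not differ beyond counting error between non-dividing cells with and without the factors.

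**Figure D4:**
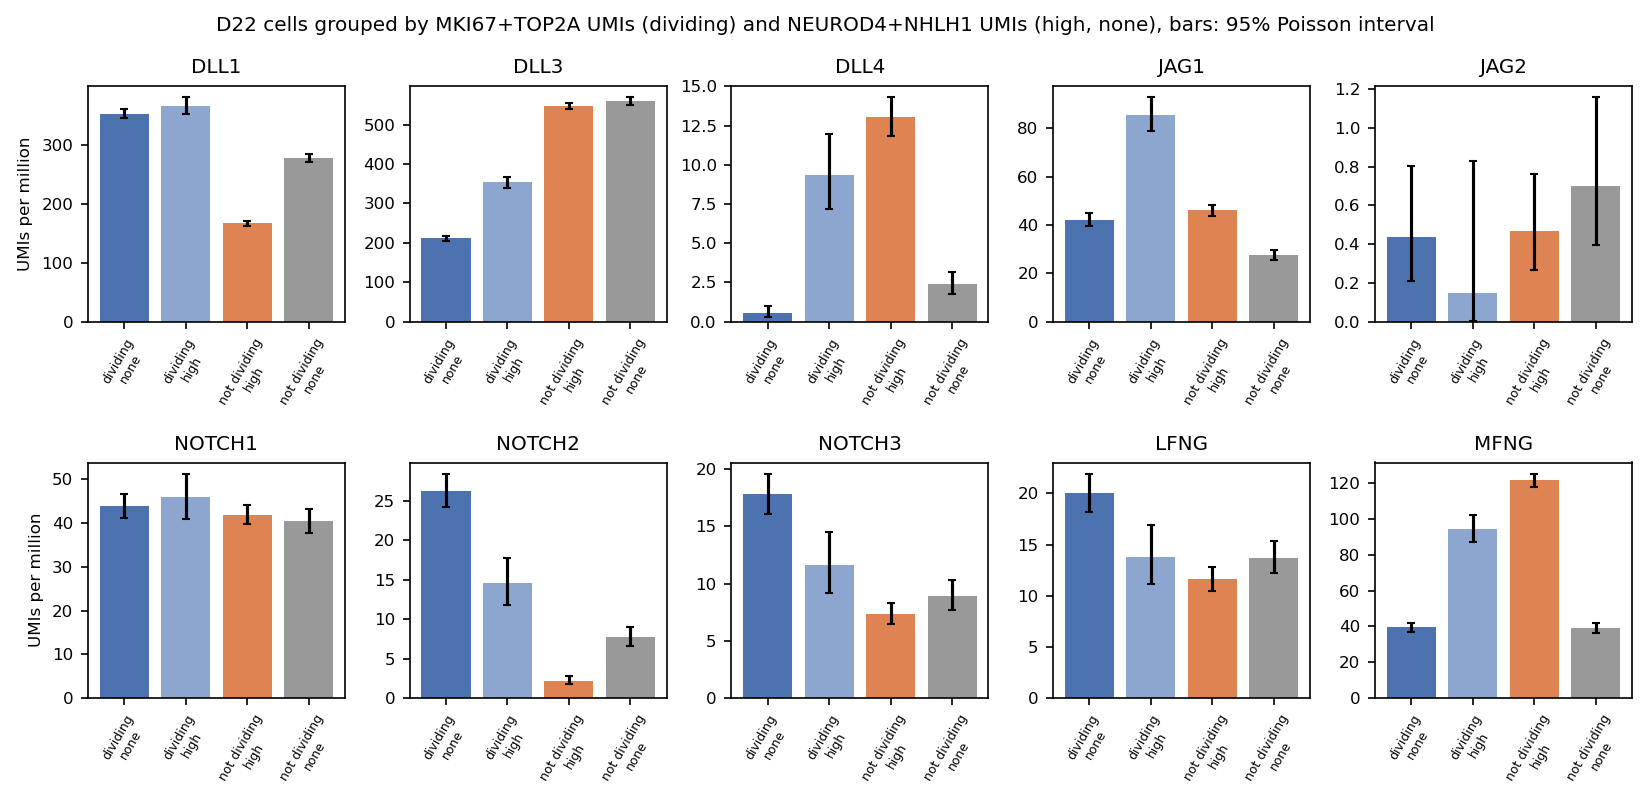
Level (y axis, CPM, a separate scale for each gene) of the 10 genes in 4 groups of D22 cells (x axis), by division and by NEUROD4 and NHLH1 UMIs (high, at least 4, or none), as bars with exact 95% Poisson intervals. NOTCH1 bars stand between 40.4 and 45.9 CPM, and MFNG bars are high in both groups with NEUROD4 and NHLH1.

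In the non-dividing group without NEUROD4 and NHLH1, STMN2, a gene of differentiated neurons, was at 2542 CPM and SOX2, a progenitor factor, at 256 CPM. After this had been seen, the non-dividing D22 cells were binned by STMN2 at 100, 1000 and 5000 CPM in the cell, which gave 1520, 1728, 1787 and 863 cells of like median depth (11992.5, 11957.5, 11738 and 11014 UMIs). From the lowest to the highest bin DLL1 was at 375, 286, 110 and 11.2 CPM, and dividing cells had 368 CPM. DLL1 was thus not lower in the lowest bin than in dividing cells. DLL3 was at 592, 612, 566 and 258 CPM. DLL1 was therefore already low where DLL3 was still high. MFNG was at 73.9, 105, 123 and 16.7 CPM and DLL4 at 6.80, 10.8, 11.3 and 0.714 CPM, both highest in the third bin. NOTCH1 was at 53.3, 53.7, 33.7 and 3.06 CPM, NOTCH2 at 9.21, 5.14, 1.04 and 0.102 CPM, NOTCH3 at 11.7, 10.2, 5.01 and 1.33 CPM, and LFNG at 17.6, 15.0, 9.71 and 1.12 CPM. JAG1 changed little, from 48.7 to 40.3, 36.1 and 34.8 CPM.

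**Figure D5:**
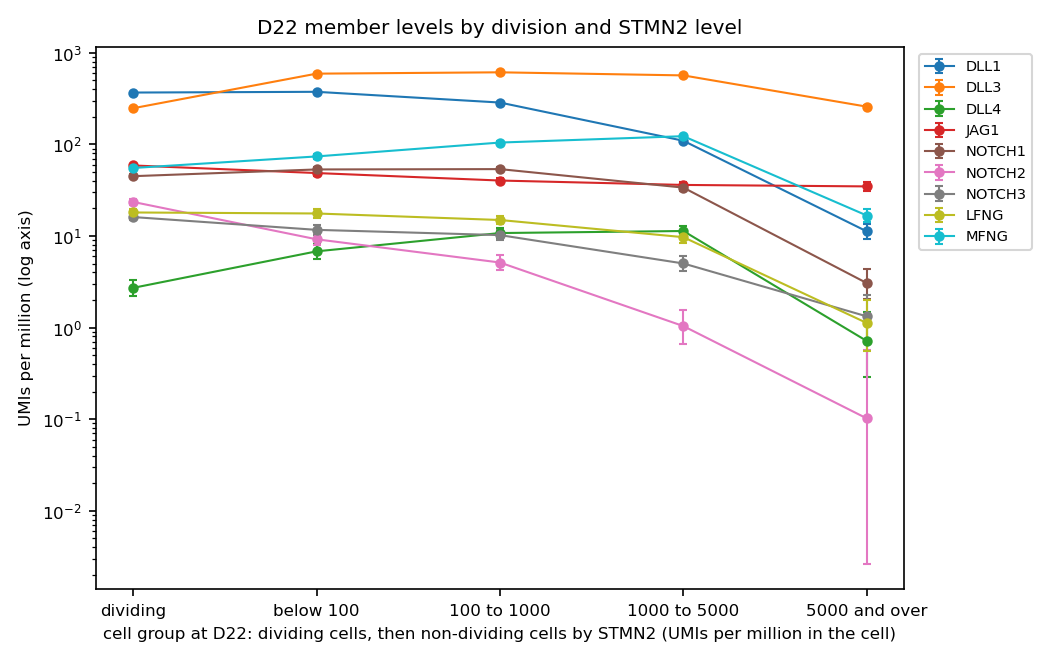
Level (y axis, CPM, log axis) of 9 genes in D22 dividing cells and in non-dividing cells binned by the level of STMN2 in the cell (x axis), with exact 95% Poisson intervals. Lines join the groups of cells of 1 library. DLL1 is at 375 CPM in the lowest and 11.2 CPM in the highest bin, while JAG1 stays between 34.8 and 58.9 CPM.

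Whether members were found in the same D22 cells was described at an equal depth of 1500 UMIs per cell, drawn at random, which all 9523 cells reached. A UMI of DLL1 was then seen in 2956 cells. Of these 47.5% also had DLL3, against 42.5% of cells without DLL1, 8.56% had NOTCH1 against 5.27%, and 5.45% had HES5 against 3.20%. The shares with the receptor NOTCH1 and with its target HES5 were thus higher among cells with the ligand than among cells without it. This was not particular to them. SOX2 was seen in 28.6% against 20.1%, HES6 in 79.6% against 67.2% and JAG1 in 7.61% against 5.39%. JAG2, seen in 0 and 4 cells, and STMN2, given below, went the other way. Of 599 cells with NOTCH1, 42.2% had DLL1 (exact Clopper-Pearson interval 38.2 to 46.3%), against 30.3% (29.3 to 31.3%). Of 371 cells with HES5, 43.4% had DLL1, against 30.5% of cells without. Of 105 cells with DLL4, 19.0% had MFNG, against 11.2%. STMN2 was seen in 28.2% of cells with DLL1 and 53.2% of cells without. As a background, DLL1 was seen in 1.62% and NOTCH1 in 0.232% of the 863 non-dividing cells of highest STMN2, in a separate random draw to the same depth (median depths before thinning 11014 UMIs, and 12179 UMIs over all D22 cells). Before thinning, 72.2% of D22 cells had a UMI of DLL1 and 87.4% one of DLL3.

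Between D22 and D24 the 8 members that passed 10 CPM were lower by at least 2-fold and none was higher, against 12.9% of all genes lower and 10.2% higher. Of these, 6 passed only through D22, where they were high (DLL1, NOTCH1, NOTCH2, NOTCH3, LFNG and MFNG), and only DLL3 and JAG1 passed in both libraries. JAG2, under 10 CPM, was 5.36-fold higher at D24 (0.521 to 2.79 CPM). DLL1 was 41.3-fold lower (log2 ratio -5.37, interval -5.50 to -5.24) and NOTCH1 65.2-fold lower (-6.03, -6.47 to -5.61). MFNG was 54.1-fold, NOTCH2 52.6-fold, LFNG 27.2-fold and NOTCH3 9.56-fold lower. DLL3 at 4.11-fold and JAG1 at 3.80-fold were the least lowered. Cells with at least 5 UMIs of MKI67 and TOP2A made up 21.5% of D22 and 0.516% of D24, and summed levels therefore compare different mixtures. Among non-dividing cells with at least 5000 CPM of STMN2, 863 at D22 and 8683 at D24, a restriction added after the data had been seen, the 4 members that passed 10 CPM were lower by at least 2-fold and none was higher, against 2.51% of all genes lower and 0.399% higher. DLL1 and MFNG passed only through D22, and DLL3 and JAG1 in both. The folds were DLL1 2.10-fold (11.2 to 5.34 CPM), DLL3 2.49-fold (258 to 104 CPM), JAG1 2.77-fold (34.8 to 12.6 CPM) and MFNG 13.1-fold (16.7 to 1.27 CPM). NOTCH1 went from 3.06 to 0.405 CPM in these cells. For each of these 4 the fold was smaller than over all cells.

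The few D24 cells that still divided, 47 in number with 572853 UMIs, held 53 of the 488 DLL1 UMIs of that library, 13 of 43 of DLL4, 8 of 47 of NOTCH1, 7 of 37 of LFNG and 71 of 7865 of DLL3, with 0.817% of all UMIs. The 123 D24 cells with at least 4 UMIs of NEUROD4 and NHLH1 had 391 CPM of DLL3, against 94.1 CPM in cells with 0. DLL4 in them was at 11.01 CPM from 13 UMIs.

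From D24 to D26, 1 of the 2 members measured was lower and none was higher, against 2.03% of all genes lower and 7.37% higher. DLL3 was 3.47-fold lower (log2 ratio -1.79, interval -1.85 to -1.73), and 3.29-fold lower in non-dividing cells with at least 5000 CPM of STMN2. JAG1, which passed 10 CPM only at D24, was 1.60-fold lower. The median log2 ratio of genes with at least 10 CPM in both libraries was 0.30. DLL1 (6.96 to 8.82 CPM) stayed under 10 CPM.

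The D26 neurons were separated into 1140 cells with at least 4 UMIs of DLX1, DLX2, DLX5, DLX6 and DLX6-AS1 and 0 of TBR1 and PPP1R17, and 6408 cells with the converse. DLX genes are homeobox factors of inhibitory neurons, and TBR1 is a factor of glutamatergic neurons. Of 2 members measured none passed 2-fold, against 2.75% of all genes higher in DLX cells and 4.51% lower. DLL1 was at 15.5 against 7.85 CPM, 1.97-fold higher in DLX cells (log2 ratio 0.98, interval 0.71 to 1.24) and past 10 CPM only in them, and at D24 at 12.1 against 5.71 CPM, 2.12-fold higher. At D24 DLL1 passed 10 CPM only in the DLX cells and JAG1 only in the TBR1 and PPP1R17 cells, so the rule fixed both directions. The share over all genes was not computed for this contrast at D24. JAG1 was on the other side at both days. It was at 2.35 against 8.69 CPM at D26 and at 2.64 against 13.0 CPM at D24, where the median log2 ratio of genes with at least 10 CPM in both groups was -0.14. DLL3 was at 39.7 against 29.9 CPM at D26 but at 54.8 against 83.8 CPM at D24. Of NOTCH1 and NOTCH2, no UMI was counted in the DLX cells of D26, which allows up to 0.294 CPM (3 counts).

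Another 33 genes of the pathway were examined by the same rule. As for the members, a pathway gene given below with under 10 CPM in either group had its direction fixed by this rule. Between D22 and D24, 2 of 23 measured were higher, against 10.2% of all genes, and 7 were lower, against 12.9%. The share that was higher was near that of all genes. Lower were DLK1, a non-canonical ligand (3621 to 77.9 CPM), HES5 (27.7 to 0.713 CPM), HES6 (1386 to 47.5 CPM) and NEURL1B, a ubiquitin ligase of ligands (23.97 to 2.04 CPM), as the 4 of largest ratio. Higher were DNER, a neuronal Notch ligand (54.8 to 138 CPM), and HES4 (33.8 to 69.2 CPM). RBPJ, the DNA-binding partner of the receptors, stayed between 128 and 176 CPM in all 8 libraries.

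From D0 to D5_dSMADi 6 of 23 measured were higher, against 8.22% of all genes, and 3 lower, against 17.0%, so that the share that was lower was not above that of all genes. Those of largest ratio were DLK1 (92.3 to 1137 CPM), HES4 (8.17 to 96.7), HES5 (26.5 to 171) and MAML3 (6.59 to 19.8) among the higher, and HEY2 (17.9 to 1.27), HES6 (71.0 to 5.23) and APH1B (11.2 to 3.17) among the lower. From D5_dSMADi to D10_dSMADi 4 of 21 were higher and none lower, against 5.15% and 1.35% of all genes: HES5 (171 to 948 CPM), HES4 (96.7 to 316), NRARP, a target that dampens Notch (50.4 to 106), and HES6 (5.23 to 10.97). When ratios were centred on the median log2 ratio, 2 genes were counted in place of 4. HES1, the other main HES target, was at 24.7 CPM at D0, 33.9 in D5_dSMADi and 28.0 in D10_dSMADi. With XAV939 at D5, HES1 was higher (33.9 to 81.8 CPM) and HES4 lower (96.7 to 30.1 CPM) of 20 measured, against 0.611% and 0.575% of all genes. At D10 DLK1 (1832 to 4281 CPM) and MAML2 (6.61 to 17.9 CPM) were higher of 21 and none was lower, against 1.21% and 1.41%. HES5 was at 27.7 CPM at D22, after a day of DAPT, but D22 was not in the droplet run of D10, and the days also differ by FGF8 and time.

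Within D22, 4 of 23 other pathway genes were higher in cells with NEUROD4 and NHLH1 and none lower, against 3.04% and 5.0% of all genes. They were NEURL1B (35.9 against 11.1 CPM), HES6, which promotes neuronal differentiation (1968 against 729), NUMBL, an antagonist of the receptor (41.8 against 17.0), and MIB1, the ubiquitin ligase that makes ligands active (221 against 91.5). In dividing cells 1 of 24 was lower, DNER (28.9 against 71.5 CPM), and none was higher, against 5.01% and 7.87% of all genes. From D24 to D26, 1 of 21 was higher, the ubiquitin ligase NEURL1 (5.69 to 12.5 CPM), and 1 lower, DLK1 (77.9 to 38.3 CPM), against 7.37% and 2.03% of all genes. In D26 DLX cells 1 of 21 was higher, DLK1 (129 against 22.1 CPM), and 1 lower, MAML2 (7.16 against 22.7 CPM), against 2.75% and 4.51% of all genes. These counts of 1 were near the shares over all genes.

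The genes whose course over the 8 libraries was most like that of a member were those with the smallest mean absolute difference of centred log2(CPM + 1) among 10712 genes with at least 10 CPM in a library. For DLL1 they were RGS20 (0.57), VIM (0.58) and AC091078.1 (0.66), for DLL3 EBF2 (0.37), MIR217HG (0.39) and CHODL (0.44), for JAG1 ADAMTS9 (0.29), NUAK2 (0.29) and TTYH1 (0.31), and for LFNG GLI3 (0.24), CTGF (0.27) and AJUBA (0.27). VIM, an intermediate filament of progenitors, ran from 151 CPM at D0 to 3630 at D22 and 318 at D26, and EBF2 from 0.0132 to 22.5 and 2.42 CPM. GLI3, a Hedgehog pathway factor, was at 221 CPM in D10_dSMADi and 40.6 CPM at D22. The 8 points share the split into the early libraries of 1 droplet run and the late libraries.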

How the data were processed

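The members and gene lists were chosen with earlier results of these data known. The authors aligned reads to GRCh38 and deposited UMI counts per gene and barcode, without normalization, from Cell Ranger (3.1 per the labels, 3.1.0 in the late and 6.1.2 in the early file headers). Cells were kept by the limits of the study per library: at least 1500 UMIs and 1000 genes and at most 20% mitochondrial UMIs at D22 to D26, 10000 UMIs, 3000 genes and 10% at D5 and D10, and 30000 UMIs, 5000 genes and 10% at D0, with a complexity (log genes over log UMIs) of at least 0.82 at D22 to D26, 0.78 at D5 and 0.82 to 0.9 at D10. At D5 and D10 these limits removed 61 to 470 of the 2480 to 2919 deposited barcodes per library, whereas the study states as many cells analysed there as barcodes were deposited, so the cells used here differ from its cells. At D0 and D22 to D26 the numbers kept equal those that the study states. At D0 the stated complexity above 0.85 left 1 barcode, so it was read as below 0.85. In each early file 95.1 to 95.6% of tag UMIs belonged to the tag that the labels give. The labels name papain for all libraries and the methods Accutase for the early ones. The depth was 58073098 to 130440502 UMIs per library. Whether strand was used in counting is not given in the sources used here. The library of sample tags was not used here.

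UMIs were summed over cells and scaled to CPM, with exact Poisson intervals for levels, exact binomial ones for ratios and Clopper-Pearson ones for shares, all at 95%. They take UMIs as independent. UMIs of 1 library and cells of 1 library are not replicates, and a count of 0 allows up to 3 counts. Genes of a gate were left out of its background. Named were all members, up to 4 other pathway genes of largest ratio per direction past 2-fold, and the 3 genes of most similar course. Doublets were scored by Scrublet in scanpy 1.11.5 (score of at least 0.25) and kept. Ratios and intervals were tested on simulated data. Python 3.11.15, numpy 2.4.6 and scipy 1.17.1 were used. Alternatives for filter, weight of cells, doublets, scaling, minimum level, fold and gates were tried.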

Additional observations from a re-analysis of the deposited data

Results flagged for a closer look

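Among members that reached 10 CPM in at least 1 group of a contrast, the following had opposite directions in 2 libraries, with both intervals off 0, and the differences between them were not tested. With XAV939 the log2 ratio of DLL1 was 0.37 at D5 and -0.44 at D10. With XAV939 that of DLL3 was -0.19 at D5 and 1.29 at D10. DLL3 passed 10 CPM only in D5_dSMADi at D5 and only in D10_XAV939 at D10, so the rule fixed both of its directions. In cells with at least 4 UMIs of NEUROD4 and NHLH1 against cells with 0, DLL1 was at -0.65 in D22 and 0.84 in D10_XAV939. In DLX cells against TBR1 and PPP1R17 cells, DLL3 was at 0.41 in D26 and -0.61 in D24. MFNG, under 10 CPM in both XAV939 contrasts, was at -0.64 at D5 and 0.51 at D10.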

How the results depend on the processing

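No paired analysis was possible because each condition was 1 library, and no library was left out for the same reason. The share over all genes was not computed under the alternative settings below, except for the STMN2 restriction between D22 and D24. Of 93 alternative counts of members, 70 were within 1.5 times the main count. With 1.5-fold counted, they were 5 in place of 3 (D5_dSMADi against D0), 3 in place of 1 (D10_dSMADi against D5_dSMADi), 2 in place of 0 (XAV939 at D5), 2 in place of 1 (XAV939 at D10), 2 in place of 1 (D26 against D24), 5 in place of 3 (D22 dividing), 6 in place of 3 (D22 NEUROD4 and NHLH1) and 1 in place of 0 (D26 DLX cells). For D10_dSMADi against D5_dSMADi, the mean of the cells' own CPM, a total without mitochondrial and ribosomal protein genes and a minimum of 5 CPM each gave 2, with MFNG lower in addition. For D24 against D22, a minimum of 20 CPM gave 5, and only non-dividing cells of 5000 CPM STMN2 gave 4. For D22 dividing cells, a gate of at least 2 UMIs and the gate after thinning each gave 1, with DLL3 and NOTCH3 inside 2-fold. For D22 NEUROD4 and NHLH1, a minimum of 20 CPM gave 1. For D26 DLX cells, the mean of the cells' own CPM, centring on the median log2 ratio, the total without mitochondrial and ribosomal protein genes, a minimum of 5 CPM and a gate of at least 8 each gave 1, and library D24 gave 2. XAV939 at D10 gave 0 in cells with 0 NEUROD4 and NHLH1 UMIs, where the log2 ratio of DLL3 was -0.15 in place of 1.29. This and the STMN2 restriction were chosen after seeing the data. Of 410 log2 ratios, 310 stayed within the main interval, and that of DLL3 was the only one past the counted fold to change sign. Another 19 that were within 2-fold also changed sign, for D10_dSMADi against D5_dSMADi NOTCH1 from 0.01 to -0.155 and NOTCH3 from 0.03 to -0.134 when centred, and to -0.151 and -0.131 without mitochondrial and ribosomal protein genes. Without the filter on cells, the log2 ratio of DLL3 with XAV939 at D10 was 1.125. Beyond the restrictions on cells and the lower or higher minimum, the cause was not tested. Under 10 CPM a member was not counted, which sets how few members D26 could show. Of 90 alternative counts of the other pathway genes, 78 were within 1.5 times the main count.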
